A study of Mus musculus with 9 samples.

Results

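The 10 genes described here encode proteins of planar cell polarity, the system that orients cells within the plane of a tissue. They are Vangl1, Vangl2, Prickle1, Prickle2, Celsr1, Celsr2, Celsr3, Daam1, Daam2 and Scrib, chosen by name as genes downstream of non-canonical WNT signalling. All 10 were found among the 56620 genes and assembled loci in the data. Of these 10, 9 passed the filter for testing, an average over the 9 libraries of 1 FPKM or more, and Celsr3 did not.

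RNA was measured in 9 libraries from mouse cells labelled pulmonary microvascular endothelial cells, the lining of the small lung vessels, bought as primary cells and cultured for 48 h. The RA group had room air with 21% oxygen, the HO group hyperoxia with 85% oxygen, and the HO-WNT5A group 85% oxygen with 100 ng/ml recombinant WNT5A protein, with 3 libraries in each group. No genetic change is given for any group, and no strain, age or number of donor animals is given in the sources used here. The labels do not say whether the 3 libraries of a group are separate cultures, and every p-value here reflects just the spread among these 9 libraries, possibly technical. FPKM are fragments scaled to transcript length and to how many fragments each library had mapped. They are given here after scaling of the libraries, and since they are per length, levels can be compared between genes.

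In planar cell polarity, the atypical cadherins Celsr1 to Celsr3 and the Frizzled receptors sit at cell borders with the membrane proteins Vangl1 and Vangl2. Inside the cell, Prickle proteins bind on the Vangl side and Dishevelled proteins on the Frizzled side. WNT5A, a secreted ligand, acts on this system through receptors such as ROR2 and RYK. The DAAM formins link Dishevelled to the RHOA GTPase and to actin, and Scribble is a scaffold that binds Vangl proteins. In mouse endothelium the pathway is known for its part in the directed migration of cells during vessel remodelling.

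The cells did not carry most defining markers of endothelium. Of 12 endothelial markers, 3 averaged 1 FPKM or more over the 9 libraries and 2 averaged 5 or more, Flt1 with 38.0 and Emcn with 10.1. Pecam1 and Cdh5, which define endothelial junctions, had 0.0932 and 0.0544, and Tie1 and Erg 0.00882 and 0.00288. The summed level of the 12 was 50.6 to 56.4 FPKM in RA, 49.5 to 56.0 in HO and 40.7 to 50.6 in HO-WNT5A. Of 9 pericyte and smooth muscle markers 7 had at least 5 FPKM, with a sum of 2960 to 3310 in RA, 2430 to 3320 in HO and 2720 to 3120 in HO-WNT5A. That sum was mostly Acta2, Tagln and Des, with means of 1580, 888 and 367, while Myh11 and Rgs5 averaged 0.237 and 0.759. The counts at 5 FPKM were 3 of 7 for fibroblast, 4 of 7 for epithelial and 0 of 6 for leukocyte markers. Summed fibroblast markers were lower in every HO-WNT5A library than in every RA library. They were 267 to 286 FPKM in RA, 217 to 267 in HO and 194 to 265 in HO-WNT5A. The sum was mostly collagen, with means of 184 for Col1a1, 45.3 for Col1a2 and 16.8 for Col3a1. Fbln1 averaged 3.93, and Pdgfra, Dcn and Lum 0.666, 0.399 and 0.00205. RA and HO-WNT5A libraries did not overlap for 32.8% of all genes tested. The epithelial and leukocyte sums overlapped between the 3 groups, at 132 to 172 over all libraries for epithelial and 7.6 to 15.4 for leukocyte markers. In these bulk libraries fewer cells of a type and less RNA per cell cannot be told apart. How far such cells bear on the values below was not tested.

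By mean level the 10 genes stood in 4 steps. Daam1, Scrib and Celsr2 had means of 14.0 ± 0.788, 12 ± 1.33 and 10.5 ± 0.610 FPKM (SD, n = 9). Prickle1, Vangl1 and Vangl2 followed with 5.89 ± 0.506, 4.44 ± 0.318 and 4.39 ± 0.444. Prickle2, Celsr1 and Daam2 had 2.92 ± 0.262, 2.19 ± 0.330 and 1.96 ± 0.261, and Celsr3 had 0.139 ± 0.0391. Ranges over the 9 libraries did not overlap between Celsr2 and Prickle1, between Vangl2 and Prickle2, or between Daam2 and Celsr3. Within each step, neighbours overlapped. Vangl1 was above Vangl2 in 6 of 9 libraries and Celsr1 above Daam2 in 6 of 9, while Daam1 was above Scrib in 8 of 9. The median tested gene had a mean of 7.31 FPKM, so Daam1 lay at the 68.5th percentile of tested genes by level and Daam2 at the 16.5th.

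**Figure D1:**
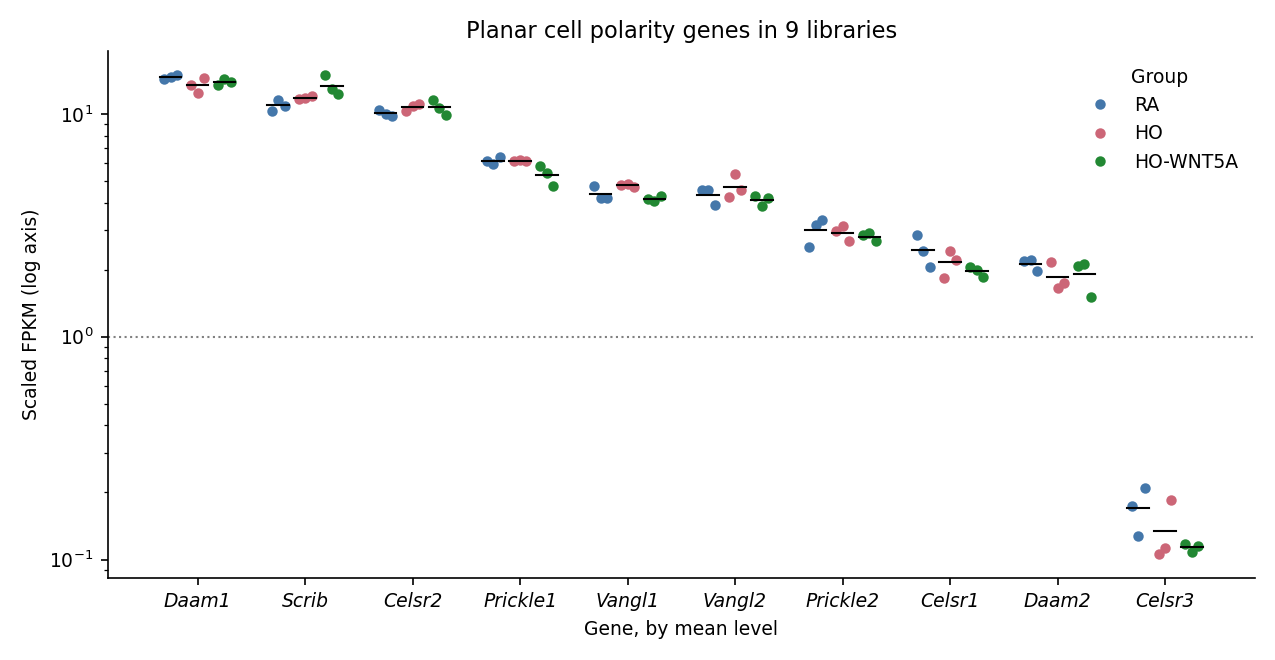
Scaled FPKM of the 10 genes (log axis) in the 9 libraries, with points for libraries coloured by group, black bars for group means and a dotted line at the filter of 1 FPKM. Daam1, Scrib and Celsr2 lie near or above 10 FPKM in each group and Celsr3 lies near 0.1.

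Each paralog family had its own balance. The core membrane pair Vangl1 and Vangl2 was expressed about equally, with a ratio of Vangl2 to Vangl1 of 0.891 to 1.10 over the 9 libraries. Prickle2 stood at 0.416 to 0.563 of Prickle1, and Daam2 at 0.108 to 0.160 of Daam1. Transcripts annotated as retaining an intron held a mean of 90.6% of Daam2 FPKM and 27.8% of Daam1 FPKM. The Daam ratio is thus not one of coding transcripts. Among the Celsr cadherins, Celsr1 stood at 0.176 to 0.273 of Celsr2. The ratio of Celsr1 to Celsr2 was 0.273, 0.243 and 0.211 in RA, 0.178, 0.224 and 0.200 in HO, and 0.176, 0.188 and 0.188 in HO-WNT5A. The RA and HO-WNT5A libraries did not overlap, with a difference in mean log2 ratio of -0.39 (exact permutation test, two-sided, p = 0.1, adjusted p = 0.8 over 12 tests). With 3 libraries against 3 the exact permutation test reaches no lower than 0.1. The other 11 ratio tests had exact p from 0.2 to 1, and differences between -0.27 and 0.16 on the log2 scale.

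The annotated transcripts behind these levels differed in where they begin. Prickle2 has 4 annotated starts and Daam1 and Prickle1 have separate outer and inner starts, and the sequence around each is shown because, for Prickle2 and Daam1, libraries of RA and of HO differed in which start was given most of the FPKM. Each stretch runs from 250 bases before to 50 bases after a RefSeq start on GRCm38.p6 (the assembly also called mm10), 5′ to 3′ on the gene's own strand, which is minus for Prickle2 and Prickle1 and plus for Daam1. Capitals mark GC boxes, the 6 letters GGGCGG or their reverse complement CCGCCC, which may overlap each other. Promoters of 7 of the 10 genes were matched, and those of Vangl1, Celsr1 and Scrib were not used here.
Prickle2-201 start, chr6:92706135-92706434: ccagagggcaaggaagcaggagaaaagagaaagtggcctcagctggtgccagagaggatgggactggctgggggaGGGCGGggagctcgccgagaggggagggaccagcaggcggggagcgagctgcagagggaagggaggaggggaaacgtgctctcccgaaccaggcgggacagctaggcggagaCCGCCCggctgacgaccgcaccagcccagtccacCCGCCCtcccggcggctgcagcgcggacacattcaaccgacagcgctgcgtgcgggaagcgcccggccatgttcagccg
Prickle2-204 start, chr6:92567317-92567616: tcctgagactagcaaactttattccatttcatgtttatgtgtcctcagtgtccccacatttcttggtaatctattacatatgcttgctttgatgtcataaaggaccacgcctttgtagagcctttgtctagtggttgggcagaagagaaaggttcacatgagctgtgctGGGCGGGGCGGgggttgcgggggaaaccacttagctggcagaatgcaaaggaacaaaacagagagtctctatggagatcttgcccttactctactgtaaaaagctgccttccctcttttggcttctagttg
Prickle2-203 start, chr6:92534812-92535111: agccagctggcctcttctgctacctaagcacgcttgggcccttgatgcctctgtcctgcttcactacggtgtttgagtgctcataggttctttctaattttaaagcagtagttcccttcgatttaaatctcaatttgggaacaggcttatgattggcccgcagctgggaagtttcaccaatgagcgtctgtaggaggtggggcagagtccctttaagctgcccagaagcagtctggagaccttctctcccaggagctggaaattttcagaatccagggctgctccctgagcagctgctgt
Prickle2-202 start, chr6:92481343-92481642: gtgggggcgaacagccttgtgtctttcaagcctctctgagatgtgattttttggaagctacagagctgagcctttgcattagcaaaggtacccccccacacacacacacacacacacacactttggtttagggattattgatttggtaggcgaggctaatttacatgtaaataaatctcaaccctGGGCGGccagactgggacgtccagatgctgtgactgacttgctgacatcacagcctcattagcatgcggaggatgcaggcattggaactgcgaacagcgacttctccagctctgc
Daam1-205 start, chr12:71830818-71831117: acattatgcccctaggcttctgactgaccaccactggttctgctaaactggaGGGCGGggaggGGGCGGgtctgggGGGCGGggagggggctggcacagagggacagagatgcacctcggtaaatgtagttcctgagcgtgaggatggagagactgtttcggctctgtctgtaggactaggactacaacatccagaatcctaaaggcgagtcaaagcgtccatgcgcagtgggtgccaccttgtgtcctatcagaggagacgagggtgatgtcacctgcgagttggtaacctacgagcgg
Daam1-202 start, chr12:71889293-71889592: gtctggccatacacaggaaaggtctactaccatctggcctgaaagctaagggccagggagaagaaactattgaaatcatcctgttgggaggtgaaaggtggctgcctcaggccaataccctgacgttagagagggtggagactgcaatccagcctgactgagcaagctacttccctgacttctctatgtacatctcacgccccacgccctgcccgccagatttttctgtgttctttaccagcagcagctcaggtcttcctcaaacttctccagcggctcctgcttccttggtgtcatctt
Prickle1-201 start, chr15:93595853-93596152: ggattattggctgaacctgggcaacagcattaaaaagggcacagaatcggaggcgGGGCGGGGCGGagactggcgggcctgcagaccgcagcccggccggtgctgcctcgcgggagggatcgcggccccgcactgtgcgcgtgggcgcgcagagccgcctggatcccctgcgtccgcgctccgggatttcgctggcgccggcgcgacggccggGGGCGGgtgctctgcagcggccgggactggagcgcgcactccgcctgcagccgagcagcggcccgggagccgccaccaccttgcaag
Prickle1-202 start, chr15:93519471-93519770: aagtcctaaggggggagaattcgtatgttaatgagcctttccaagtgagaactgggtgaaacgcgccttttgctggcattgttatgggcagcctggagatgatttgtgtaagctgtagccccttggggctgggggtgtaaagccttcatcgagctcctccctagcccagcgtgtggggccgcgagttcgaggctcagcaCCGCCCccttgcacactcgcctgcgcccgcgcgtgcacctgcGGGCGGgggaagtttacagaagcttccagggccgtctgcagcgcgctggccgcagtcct

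Each stretch is named by the annotated transcript whose first base lies nearest, at 29, 0, 0 and 0 bases for Prickle2 in the order shown, 10 and 187 for Daam1, and 11 and 3 for Prickle1. The outermost starts were richer in CG dinucleotides. The Prickle2-201 stretch held 25 CG and 69.7% G or C, against 4 to 7 CG and 46.3% to 51.3% in the 3 inner ones. The Daam1-205 stretch held 13 CG against 5 at Daam1-202, and Prickle1-201 held 39 against 20 at Prickle1-202. The median over 32851 promoters of that length was 7 CG and 52.7% G or C. A GC box was present in 6 of the 8 stretches, against 35.7% of all promoters, and was absent from those of Prickle2-203 and Daam1-202. These matches describe letters and say nothing of which factor binds.

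Prickle2, a LIM-domain partner of Vangl proteins (chromosome 6, 92370908 to 92706155), had its FPKM assigned almost wholly to transcripts of 3 of its 4 annotated starts. Prickle2-201, from the outermost start, had 0.274, 0.571 and 1.93 FPKM in RA, 2.05, 1.82 and 0.868 in HO, and 2.05, 1.78 and 1.92 in HO-WNT5A. Prickle2-203, from a start inside the gene, had 1.87, 1.63 and 0.271 in RA, 0.0152, 0.00785 and 1.22 in HO, and 0.0172, 0.00546 and 0.0165 in HO-WNT5A. RA replicates 1 and 2 and HO replicate 3 were thus high in Prickle2-203 and low in Prickle2-201, and the other 6 libraries were the reverse. These transcripts share 7614 bases, 98.2% of Prickle2-201, so fragments from nearly all of their length can be given to either. Their sum was far steadier, at 2.14, 2.20 and 2.20 FPKM in RA, 2.07, 1.82 and 2.09 in HO, and 2.07, 1.78 and 1.94 in HO-WNT5A. The coefficient of variation over the 9 libraries was 47.4% for Prickle2-201, 139% for Prickle2-203 and 7.55% for the sum. Prickle2-202, from the innermost start, had 0.391 to 1.30 FPKM over the 9 libraries and has 84.7% of its length within Prickle2-201, and Prickle2-204 a mean of 0.0108.

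Daam1, the formin that links Dishevelled to RHOA (chromosome 12, 71831078 to 71992333), showed the same kind of exchange within RA and within HO, in other libraries. Daam1-205, from the outer start, had 9.97, 3.23 and 2.55 FPKM in RA, 1.45, 9.17 and 1.87 in HO, and 9.78, 6.15 and 7.34 in HO-WNT5A. Daam1-202, from the inner start, had 0.0308, 7.40 and 8.15 in RA, 8.55, 0.0184 and 9.12 in HO, and 0.0237, 3.80 and 2.60 in HO-WNT5A. Each group held 1 library in which Daam1-202 was near 0, and in HO-WNT5A Daam1-205 was the larger in all 3 libraries. The pair share 5681 bases, 97.4% of Daam1-205, and their sum lay between 9.18 and 11.0 FPKM in all 9 libraries. A further 24.3% to 31.1% of Daam1 FPKM lay in a pair of transcripts annotated as retaining an intron.

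**Figure D2:**
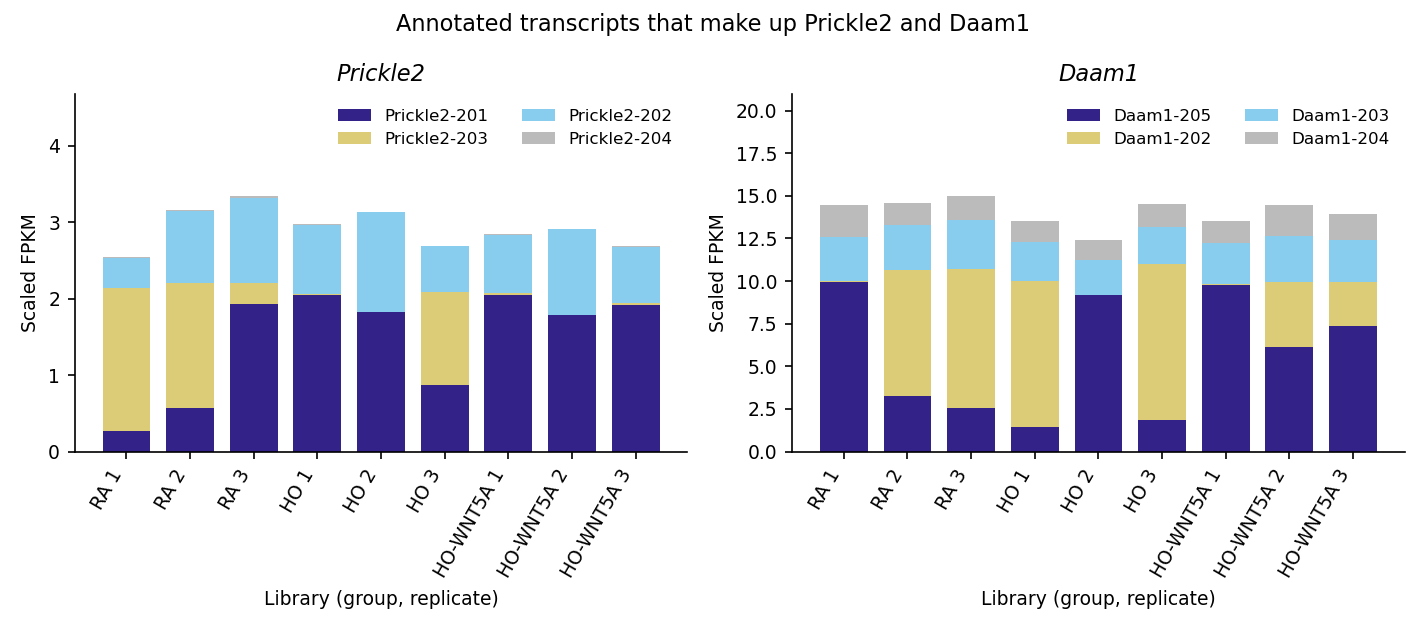
Scaled FPKM of the annotated transcripts of Prickle2 and Daam1, stacked, in each of the 9 libraries. The outer-start (Prickle2-201, Daam1-205) and inner-start (Prickle2-203, Daam1-202) shares trade places between libraries within RA and within HO, the outer-start transcripts are the larger in all 3 HO-WNT5A libraries, and the sums stay between 1.78 and 2.20 FPKM for Prickle2 and between 9.18 and 11.0 for Daam1.

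Prickle1, the paralog of Prickle2 (chromosome 15, 93499114 to 93595891), came mostly from its outer start, since Prickle1-201 held 90.3% to 98.7% of its FPKM. The inner-start transcript Prickle1-202 had 0.176, 0.576 and 0.567 FPKM in RA, 0.170, 0.0934 and 0.0775 in HO, and 0.100, 0.156 and 0.0836 in HO-WNT5A. All RA libraries lay above all others, though RA replicate 1 by only 0.176 against 0.170. The transcript lay below the filter. In a fit with no filter its log2 difference was -0.36 ± 0.113 (SE) in HO vs RA (limma adjusted p = 0.562) and -0.36 ± 0.113 in HO-WNT5A vs RA (limma adjusted p = 0.542). The transcript shares 3884 bases, 93.7% of its length, with Prickle1-201.

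Daam2, the second DAAM formin (chromosome 17, 49456022 to 49564343), was carried by an entry not annotated as coding. Daam2-203, annotated as retaining an intron, held 80.5% to 90.9% of Daam2 FPKM, and both protein-coding entries together held 4.38% to 18.4%. Daam2-203 covers 3640 bases, 99.8%, of the coding entry Daam2-201, so a fragment of the coding exons can be given to either. In the other members 1 protein-coding transcript led: Vangl2-201 held 92.5% to 98.8% of its gene, Celsr2-201 85.9% to 94.2%, Scrib-202 83.6% to 92.6%, Celsr1-201 75.6% to 89.6% and Vangl1-201 72.0% to 86.8%. Of the members' transcripts 12 passed the filter of 1 FPKM and were tested in a fit over 26143 transcripts. None was called in HO vs RA, HO-WNT5A vs HO or HO-WNT5A vs RA (smallest limma adjusted p = 0.373, 0.743 and 0.301), against 0.00765%, 0.0115% and 0.0191% of all transcripts. At an unadjusted p under 0.05 the counts were 1, 0 and 1 of the 12, against 11.2%, 6.79% and 11.2% of all transcripts.

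The comparison of HO with RA asked what hyperoxia changed. None of the 9 tested planar cell polarity genes passed the threshold, a limma p of 0.05 after Benjamini-Hochberg adjustment over 13832 genes, and none had an unadjusted p under 0.05. Of all genes tested, 1.97% were called, 1.21% higher and 0.759% lower, and 18.2% had an unadjusted p under 0.05. Estimates were above 0 for 5 members and below for 4, with a median log2 difference of 0.01 for the members and 0 for all genes. On FPKM as deposited, where all genes had a median of -0.06, these were 4 above and 5 below, and 36.5% of all calls were higher in place of 61.4%. Log2 differences of genes and transcripts, unlike those of the ratios above, were taken after adding 1 to each FPKM, so those of low genes come out too small, and intervals are 95% and not adjusted.

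Scrib, the Scribble scaffold (chromosome 15, 76047158 to 76069784), had 10.3, 11.6 and 10.9 FPKM in RA and 11.7, 11.8 and 12 in HO. It was the 1 tested member whose HO and RA libraries did not overlap, as was so for 21.4% of all genes, 11.3% higher and 10.1% lower. Its log2 difference was 0.11 ± 0.0748 (SE, interval -0.06 to 0.28, limma adjusted p = 0.476). It was 0.0706 without RA replicate 1 and 0.1486 without RA replicate 2. Daam1 had 14.4, 14.6 and 15.0 FPKM in RA and 13.5, 12.4 and 14.5 in HO, where replicate 3 reached the RA range. Its log2 difference of -0.12 ± 0.063 (interval -0.26 to 0.02) had the smallest p of the members (limma adjusted p = 0.362). The Daam1 difference was -0.0646 without HO replicate 2 and -0.1683 without HO replicate 3 (limma adjusted p = 0.114).

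The Vangl pair had close estimates in HO vs RA. Vangl1, a four-pass membrane protein of the core complex (chromosome 3, 102153583 to 102204693), had 4.75, 4.19 and 4.21 FPKM in RA and 4.78, 4.86 and 4.69 in HO (log2 difference 0.10, interval -0.05 to 0.25). Vangl2, its paralog required for neural tube closure in mouse (chromosome 1, 172000960 to 172028444), had 4.57, 4.56 and 3.90 in RA and 4.26, 5.35 and 4.54 in HO (0.09, interval -0.10 to 0.29). The groups overlapped for both genes. For Prickle1 the RA libraries had 6.12, 5.95 and 6.40 FPKM and the HO libraries 6.15, 6.23 and 6.16, a difference of 0.01 (interval -0.16 to 0.17). For Prickle2 the values were 2.54, 3.16 and 3.35 in RA and 2.97, 3.14 and 2.69 in HO, a difference of -0.03 (interval -0.23 to 0.18).

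Among the Celsr cadherins, which join neighbouring cells across their border, Celsr2 (chromosome 3, 108390851 to 108415552) had 10.4, 10 and 9.75 FPKM in RA and 10.3, 10.8 and 11.1 in HO (log2 difference 0.08, interval -0.06 to 0.23). Celsr1 (chromosome 15, 85898929 to 86033777) had 2.85, 2.43 and 2.05 in RA and 1.83, 2.43 and 2.21 in HO (-0.12, interval -0.36 to 0.11). Daam2 had 2.19, 2.21 and 1.98 in RA and 2.16, 1.65 and 1.75 in HO (-0.14, interval -0.38 to 0.10). Groups overlapped for these 3 genes. The limma adjusted p of members other than Daam1 lay between 0.451 and 0.973. Across the 9 members these intervals, unadjusted and after adding 1 to each FPKM, reached from -0.38 to 0.29. They do not exclude larger differences on other scales. For Daam2 the log2 difference was -0.1988 ± 0.159 (SE) with 0.1 added in place of 1. Without HO replicate 1 it was -0.2116 ± 0.115.

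Celsr3, the third Celsr cadherin, known in mouse for axon guidance (chromosome 9, 108826320 to 108852969), had 0.174, 0.127 and 0.209 FPKM in RA. It had 0.106, 0.113 and 0.185 in HO and 0.117, 0.108 and 0.115 in HO-WNT5A. The HO-WNT5A libraries lay below the RA libraries and overlapped HO. Its main transcript of 11571 bases had an estimate of roughly 21 to 39 fragments per library, though fragment counts were not recovered. In a fit with no filter its log2 differences were -0.04 in HO vs RA, -0.03 in HO-WNT5A vs HO and -0.07 in HO-WNT5A vs RA (limma adjusted p = 0.689, 0.884 and 0.442).

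The comparison of HO-WNT5A with HO tested the effect of adding recombinant WNT5A during hyperoxia. None of the 9 tested members passed, against 0.00723% of all genes, which was 1 gene. At an unadjusted p under 0.05 there were 2 members, Prickle1 and Vangl1, against 9.20% of all genes. Estimates were above 0 for 3 members and below for 6, with a median log2 difference of -0.04 for the members and 0 for all genes. The libraries did not overlap for 3 members, 1 higher and 2 lower, against 13.0% of all genes, 6.26% higher and 6.69% lower.

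Prickle1 had 6.15, 6.23 and 6.16 FPKM in HO and 5.84, 5.43 and 4.77 in HO-WNT5A. All 3 HO-WNT5A libraries lay below all 3 HO libraries. The log2 difference was -0.18 ± 0.0725 (SE, interval -0.34 to -0.02, limma adjusted p = 0.503). Vangl1 had 4.78, 4.86 and 4.69 in HO and 4.15, 4.08 and 4.28 in HO-WNT5A, again with the HO-WNT5A libraries below. Its log2 difference was -0.16 ± 0.0669 (interval -0.31 to -0.01, limma adjusted p = 0.523). Scrib lay the other way, with 11.7, 11.8 and 12 in HO and 15.0, 12.9 and 12.3 in HO-WNT5A, and HO-WNT5A replicate 1 was the highest. Its log2 difference was 0.16 ± 0.0748 (interval -0.01 to 0.33, limma adjusted p = 0.556), and 0.0833 without HO-WNT5A replicate 1. Without HO-WNT5A replicate 3 the difference of Prickle1 was -0.1153, and without HO-WNT5A replicate 1 it was -0.2366. With single libraries left out, the Scrib difference reached at most 0.2163. For the leading transcripts Prickle1-201, Vangl1-201 and Scrib-202 the log2 differences were -0.19, -0.08 and 0.11 (limma adjusted p = 0.743, 0.874 and 0.811 over all transcripts). The HO and HO-WNT5A libraries overlapped for Vangl1-201 and Scrib-202 and not for Prickle1-201.

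The other 6 tested members overlapped between HO and HO-WNT5A. Vangl2 had 4.27, 3.88 and 4.18 FPKM in HO-WNT5A, a log2 difference from HO of -0.16 (interval -0.35 to 0.04). The HO group was spread out by replicate 2, without which the difference was -0.0777. Without HO replicate 1 it was -0.2147. Celsr1 had 2.05, 2 and 1.85 in HO-WNT5A (-0.09, interval -0.32 to 0.15), and Celsr2 had 11.6, 10.6 and 9.87 (-0.01, interval -0.15 to 0.14). Prickle2 had 2.85, 2.91 and 2.68 (-0.04, interval -0.25 to 0.16). Of the DAAM formins, Daam1 had 13.5, 14.4 and 13.9 (0.05, interval -0.09 to 0.19) and Daam2 had 2.08, 2.13 and 1.5 (0.02, interval -0.22 to 0.26). The limma adjusted p of these 6 lay between 0.609 and 0.989. The signs for Celsr2, Daam1 and Daam2 turned when single libraries were left out.

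**Figure D3:**
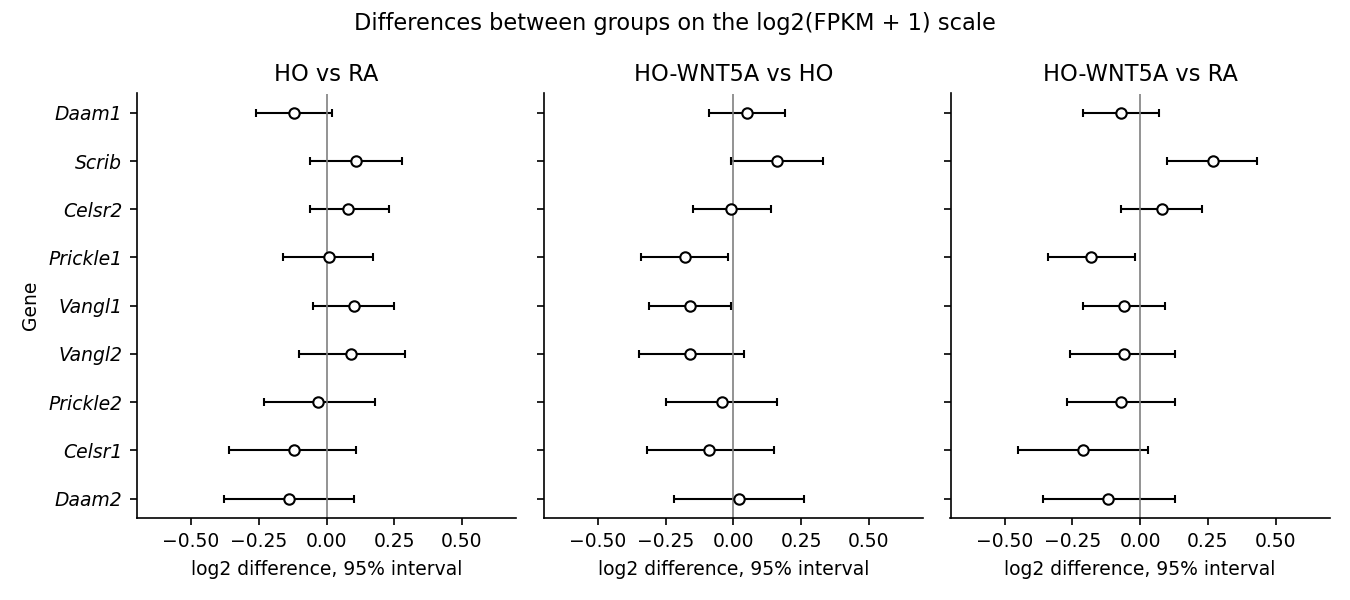
Log2 difference of each tested member in the 3 comparisons on the log2(FPKM + 1) scale, with open points for estimates and bars for 95% intervals from limma, not adjusted for the number of genes. The Scrib interval in HO-WNT5A vs RA, 0.10 to 0.43, lies farthest from 0, and no member passed after adjustment over all genes.

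The comparison of HO-WNT5A with RA shares libraries with both comparisons above, so its values are no separate support for theirs. It is also the comparison in which the summed fibroblast markers, mostly collagen, did not overlap, as was so for 32.8% of all genes. Their nearest libraries had 267 FPKM in RA and 265 in HO-WNT5A. Summed endothelial markers were also lower in HO-WNT5A, where the highest library met the lowest of RA at 50.6 FPKM. The part of either sum in the values below was not tested. None of the 9 members passed, while 4.25% of all genes did, 2.39% higher and 1.86% lower (25.4% of calls higher on FPKM as deposited in place of 56.3%). At an unadjusted p under 0.05 there were 2 members, Scrib and Prickle1, against 20.9% of all genes. Scrib came closest, with 10.9 ± 0.639 FPKM in RA and 13.4 ± 1.41 in HO-WNT5A (SD, n = 3) and a log2 difference of 0.27 ± 0.0748 (SE, interval 0.10 to 0.43, limma adjusted p = 0.0715). All 3 HO-WNT5A libraries lay above all 3 RA libraries. Over 17 alternatives its limma adjusted p lay between 0.0594 and 0.226 and its log2 difference between 0.192 and 0.325. For its leading transcript Scrib-202 the difference was 0.25 on the log2 scale (limma adjusted p = 0.301 over all transcripts).

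Prickle1 had 6.16 ± 0.230 FPKM in RA and 5.34 ± 0.538 in HO-WNT5A, with a log2 difference of -0.18 ± 0.0725 (SE, interval -0.34 to -0.02, limma adjusted p = 0.198). Celsr1 had 2.44 ± 0.399 and 1.97 ± 0.0995 (-0.21 ± 0.106, interval -0.45 to 0.03, limma adjusted p = 0.292). These became -0.1105 for Prickle1 without HO-WNT5A replicate 3 and -0.1257 for Celsr1 without RA replicate 1. At the other end, with single libraries left out, they reached -0.2315 for Prickle1 and -0.2921 for Celsr1. HO-WNT5A libraries lay below all RA libraries for Prickle1, Celsr1 and Daam1 and above them for Scrib, which is 4 of 9 members against 32.8% of all genes, 16.3% higher and 16.5% lower. For Celsr1 and Daam1 the nearest libraries of the groups were equal to the digits shown, at 2.05 and 14.4 FPKM. The remaining 6 members had log2 differences from -0.12 to 0.08 and limma adjusted p from 0.551 to 0.734. Members had a median log2 difference of -0.07, against 0 for all genes, with 2 estimates above 0 and 7 below.

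Among other genes of the pathway, 82 were listed by role and 72 passed the filter. None of the 72 was called in HO vs RA, beside 1.97% of all genes. There, 11 of the 72 had an unadjusted p under 0.05, beside 18.2% of all genes, and the median log2 difference was 0.01. None was called in HO-WNT5A vs HO, with 5 at an unadjusted p under 0.05, beside 9.20% of all genes, and a median of 0.02. In HO-WNT5A vs RA 4 were called, 2 higher and 2 lower, or 4 of 72 beside 4.25% of all genes, with a median of 0.03. An unadjusted p under 0.05 was held by 13 of the 72, beside 20.9% of all genes. Each of the 4 calls was lost when any 1 of the 6 libraries compared was left out, as the count over all genes also came down from 588 to between 124 and 201. With libraries scaled to equal totals none was called.

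The 4 called genes were Map2k4, Dvl2, Diaph3 and Rhob. Map2k4, a kinase upstream of JNK, had 23.6, 22.6 and 22.5 FPKM in RA and 27.3, 26.6 and 28.9 in HO-WNT5A (log2 difference 0.26 ± 0.053, limma adjusted p = 0.0268). Dvl2, a Dishevelled protein that relays the Frizzled signal, had 11.0, 11.3 and 10.7 in RA and 14.7, 13.4 and 12.7 in HO-WNT5A (0.28 ± 0.0632, limma adjusted p = 0.0381). Diaph3, a formin that builds actin filaments, had 5.70, 5.80 and 6.23 in RA and 4.12, 3.84 and 4.59 in HO-WNT5A (-0.42 ± 0.0879, limma adjusted p = 0.0307). Rhob, a small GTPase, had 118 ± 6.68 in RA and 97.0 ± 5.17 in HO-WNT5A (-0.29 ± 0.0638, limma adjusted p = 0.0379). RA and HO-WNT5A did not overlap for any of the 4. In HO vs RA the differences were 0.20 for Map2k4, 0.07 for Dvl2, -0.33 for Diaph3 and -0.23 for Rhob, none past the threshold (limma adjusted p = 0.0886, 0.587, 0.0899 and 0.101). Over the alternatives, Diaph3 passed there in 1 and Rhob in 2.

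The ligand and receptors of the pathway were measured in the same fit. Wnt5a itself had 27.2, 25.8 and 24.9 FPKM in RA, 26.8, 30.0 and 30.6 in HO and 29.1, 28.2 and 26.2 in HO-WNT5A. Its limma adjusted p was 0.242 for HO vs RA and 0.807 for HO-WNT5A vs HO. Of 6 listed ligands 4 were tested, and Wnt11 had 1.94 ± 0.171 in RA and 3.01 ± 0.446 in HO-WNT5A (limma adjusted p = 0.0803, passing in 1 alternative). Of 14 receptors and partners 13 were tested. Ptk7, a co-receptor of planar cell polarity, was abundant with 66.7 ± 1.79 in RA, 76.9 ± 5.26 in HO and 74.2 ± 4.82 in HO-WNT5A (limma adjusted p = 0.161 for HO vs RA, passing in 1 alternative, and 0.24 for HO-WNT5A vs RA). Ryk had 37.9 ± 1.65, 37.7 ± 2.45 and 36.6 ± 0.933. Ror2 lay below the filter in the mean, with 0.851, 0.693 and 0.649 in RA, 0.982, 0.833 and 0.828 in HO and 0.529, 0.674 and 0.671 in HO-WNT5A. Dchs1, an atypical cadherin, had a log2 difference of 0.24 in HO vs RA (limma adjusted p = 0.235), and Fzd7, a Frizzled receptor, had -0.14 in HO-WNT5A vs HO (limma adjusted p = 0.541). Fjx1, a Golgi kinase that acts on the Fat and Dachsous cadherins, had -0.18 in HO-WNT5A vs HO and -0.29 in HO-WNT5A vs RA (limma adjusted p = 0.597 and 0.126).

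The cytoplasmic components, 14 of 17 tested, all had estimates above 0 in HO-WNT5A vs HO (13 of 14 on FPKM as deposited), with a median log2 difference of 0.06, and none passed. The receptors and transmembrane partners lay mostly the other way, with 3 estimates above 0 and 10 below and a median of -0.04. Over all genes 7010 of 13832 estimates were above 0. Of the cytoplasmic components Dvl2 led with 0.21 and Dvl1 followed with 0.15 (limma adjusted p = 0.499 and 0.557). In HO vs RA the cytoplasmic list had 7 estimates above and 7 below 0, and Invs (-0.15) and Csnk1e (0.07) had the smallest p (limma adjusted p = 0.350 and 0.529). In HO-WNT5A vs RA 13 of the 14 estimates lay above 0, but 7 of 14 on FPKM as deposited and 10 with equal totals, and Csnk1e had 0.17 (limma adjusted p = 0.122). Of the Scribble complex list 14 of 15 were tested. Dlg4, a scaffold of the same family as the Scribble partner Dlg1, averaged 23.8 ± 0.378 FPKM in RA, with 24.5 ± 2.08 in HO and 29.1 ± 1.64 in HO-WNT5A. Its limma adjusted p was 0.051 for HO-WNT5A vs RA, where it passed in 3 alternatives, and 0.499 for HO-WNT5A vs HO.

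The other genes named by smallest p were not called. In the Scribble list, Llgl2 had a difference of 0.21 in HO-WNT5A vs RA (limma adjusted p = 0.115), Git2 0.24 in HO-WNT5A vs HO (0.519), and Lpp and Dlg5 -0.14 and -0.10 in HO vs RA (0.306 and 0.413). Rock2, a kinase of the actin cytoskeleton, had 65.3 ± 12.8 FPKM in HO and 79.4 ± 3.50 in HO-WNT5A (limma adjusted p = 0.503), and Pfn2 a difference of -0.14 (0.556). Of the 5 genes listed as ciliary effectors 3 were tested. Wdpcp had -0.16 in HO vs RA, 0.07 in HO-WNT5A vs HO and -0.10 in HO-WNT5A vs RA, and Intu had -0.05, 0.17 and 0.12 (limma adjusted p from 0.288 to 0.829). Wnt7b had 0.18 in HO-WNT5A vs RA (limma adjusted p = 0.363) and Wnt11 0.31 in HO vs RA and 0.14 in HO-WNT5A vs HO (0.24 and 0.781).

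**Figure D4:**
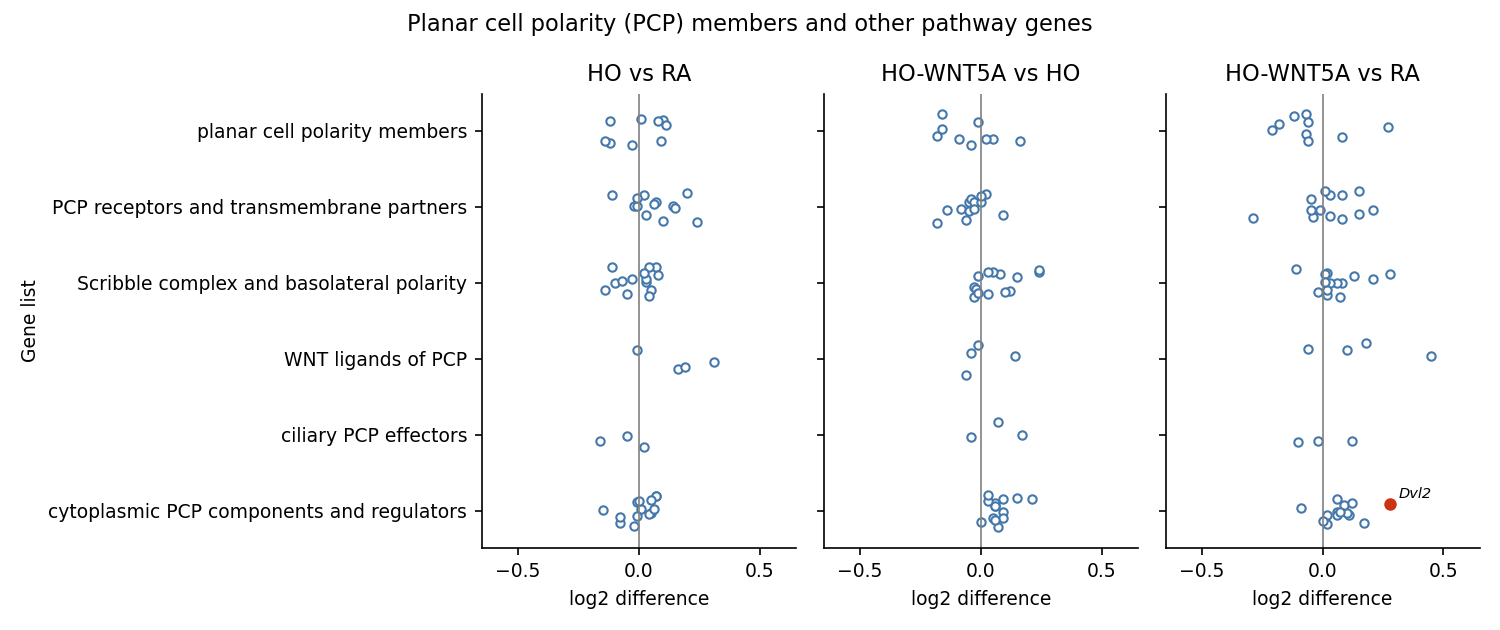
Log2 differences of the 9 tested members and of the genes of 5 other pathway lists in the 3 comparisons, with filled red points for genes past the threshold and open points for the rest. The 1 red point, Dvl2, lies at 0.28 in HO-WNT5A vs RA, and the list that holds Map2k4, Diaph3 and Rhob is not drawn.

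The genes closest in pattern to the most abundant members were found by the root mean square difference of standardized log2 profiles over the 9 libraries, among protein-coding genes. Closest to Daam1 were Tbk1, Gabpa and Srsf11, at 0.24, 0.27 and 0.27 SD units. Closest to Scrib were Gpank1, Usf1 and Gem, at 0.13, 0.27 and 0.29. The profiles share libraries and their depth, and with 9 points among many genes some profiles lie close in any case.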

How the data were processed

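Per the labels' protocols, 150-base pairs from total RNA were trimmed with Skewer 0.2.2, aligned to Ensembl's reference with STAR 2.5.3a and assembled with StringTie 1.3.1, and the merged transcripts were set against Ensembl with gffcompare 0.9.9c. FastQC 0.11.2, DESeq2 and the builds hg38 and mm10 appear without roles in the submitters' processing notes. The deposited values are the authors' FPKM for 143043 transcripts in 9 libraries. Of 142351 Ensembl transcripts 99.36% were found in GENCODE M21 (GRCm38), which gave names and coordinates, and 692 assembled transcripts were kept as 530 loci. FPKM was summed per gene.

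Libraries were scaled by median ratios to the geometric mean over libraries. Genes averaging 1 FPKM or more were tested on log2(FPKM + 1) with limma 3.58.1 in R 4.3.3 (all 9 libraries, variance trend, two-sided, Benjamini-Hochberg over 13832 genes, threshold 0.05), and transcripts likewise. FPKM hides depth. The commonest product of FPKM and length among genes with 1 transcript, taken as 1 fragment, gave roughly 21300000 to 26500000 fragments per library. Only 8.05% to 9.04% of low values were whole multiples within 0.02, so counts were not recovered and no count test was run. The test was checked on simulated data, with independent noise of equal spread in all groups and changes larger than any member difference here. It was not checked for differences as small as those of the members. Promoter sequences are RefSeq's (GRCm38.p6). Tables and plots used Python 3.11.15, pandas 2.3.3 and matplotlib 3.10.9.

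Members and lists were chosen with earlier results of these data known. Beyond the 10 members, the text names Wnt5a, Ror2, Ryk and Ptk7, any listed pathway gene past the threshold, the 2 of smallest p per list and comparison, and the genes alike in pattern. Of the 6 pathway lists, 1 has no result of its own here. The inner starts and transcripts described were chosen after their values were seen. Alternatives were other pseudocounts (0.1 and 5), filters (none, 5 FPKM), scalings, variance estimates, the compared groups alone, a replicate block, reference transcripts alone, each library left out and, added after the data were seen, protein-coding transcripts alone.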

Additional observations from a re-analysis of the deposited data

How the results depend on the processing

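No member and no member transcript passed the threshold in any comparison under any of the 20 alternatives run, and the smallest limma adjusted p of a member was 0.0594. Of 441 member differences recomputed, 424 kept their sign and 17 turned it, all of them estimates near 0. Prickle1 in HO vs RA (0.01) turned to -0.0477 on FPKM as deposited, -0.0221 with equal totals and -0.0201 with protein-coding transcripts alone, and Celsr2 in HO-WNT5A vs HO to 0.0305 with protein-coding transcripts alone. With single libraries left out, log2 differences ran from -0.0151 to 0.0313 for Prickle1 and -0.1159 to 0.0327 for Prickle2 in HO vs RA. In HO-WNT5A vs HO they ran from -0.0603 to 0.0471 for Celsr2, -0.0031 to 0.0997 for Daam1 and -0.0349 to 0.1252 for Daam2. In the same way the log2 ratio of Vangl2 to Vangl1 differed by -0.0932 to 0.0593 in HO vs RA, -0.0669 to 0.0857 in HO-WNT5A vs HO and -0.0554 to 0.0613 in HO-WNT5A vs RA. The log2 ratio of Daam2 to Daam1 differed by -0.1952 to 0.0081, -0.1176 to 0.1379 and -0.2015 to 0.054, and that of Prickle2 to Prickle1 by -0.1572 to 0.021 in HO vs RA.

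The counts over all genes, 272, 1 and 588 in HO vs RA, HO-WNT5A vs HO and HO-WNT5A vs RA, moved more. They were 69, 0 and 222 with no filter, 64, 3 and 1330 with the compared groups alone, and 55 and 256 in HO vs RA and HO-WNT5A vs RA with equal totals. With protein-coding transcripts alone HO-WNT5A vs HO had 0. Leaving out single libraries gave 2 to 707, 1 to 27 and 124 to 201, with the lowest without RA replicate 2 and the highest without HO replicate 3 in HO vs RA. Calls were higher in 61.4% of cases in HO vs RA and 56.3% in HO-WNT5A vs RA, against 36.5% and 25.4% on FPKM as deposited and 47.3% and 36.3% with equal totals. Of the 72 pathway genes, 1 passed in HO vs RA on FPKM as deposited and 1 with protein-coding transcripts alone, and 0 to 3 with single libraries left out. In HO-WNT5A vs RA the 4 became 1 with no filter, 0 with equal totals and 0 to 0 with single libraries left out. Some settings themselves bring fewer libraries or more genes, yet with the compared groups alone HO-WNT5A vs RA rose from 588 to 1330. Libraries differed most among themselves within HO, where the median SD on the log2 scale reached 0.123. It stood at 0.083 for HO-WNT5A and 0.074 for RA. The main fit drew a shared variance per gene from all libraries, and the SE, interval and p of each member rest on it. The part of this unequal spread in these shifts, or of any other cause, was not tested.

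With the replicate number as a block, 115, 2 and 392 genes and 0, 0 and 1 pathway genes passed. Same-numbered libraries of different groups correlated in their deviations with r from -0.117 to 0.279, and other pairs from -0.251 to 0.172. Of 9 libraries 5 correlated best with their own number, which does not settle whether they are paired. The main fit was unpaired because no label says that replicate numbers mark a shared culture or day. By the fragment estimate, which did not recover counts, Celsr3 was the lowest member, with roughly 21 to 39 fragments on its main transcript.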
